A study of Homo sapiens with 6 samples.

Results

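Intermediate filament genes were examined in HCT116 WT and HCT116 p21-/- cells by taking the row of vimentin (VIM) and each row whose symbol starts with KRT and a number. This gave 5 of the 770 genes measured, namely VIM, KRT1, KRT7, KRT14 and KRT19, and 3 of them, VIM, KRT7 and KRT19, were above the background floor in all 6 samples. HCT116 is an established human colorectal carcinoma line, and HCT116 p21-/- is an isogenic derivative without functional CDKN1A, the gene of the cell cycle inhibitor p21. The study compared these lines to describe the mesenchymal features of cells that lack p21. Each line was sampled as 3 biological replicates without any treatment, and RNA was counted on the NanoString PanCancer Progression Panel, in which a probe pair captures each transcript and a fluorescent barcode is counted without amplification. The labels speak of knockout clones without saying how many, the study describes the p21-/- line as adapted by long passage, and its methods name DMEM as the medium of this line where the labels name RPMI for both, so clone, passage and medium cannot be told apart from genotype here.

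Intermediate filaments are the third filament system of the cytoskeleton beside actin and microtubules. Keratins build the filaments of epithelial cells as obligate pairs of a type I chain (here KRT14 and KRT19) and a type II chain (here KRT1 and KRT7), and desmosomes anchor them at the membrane. Vimentin is a type III protein that polymerises on its own, is typical of mesenchymal cells, and is widely used with the keratins to follow epithelial-mesenchymal transition. In the GRCh38.p14 RefSeq annotation, 55 protein-coding genes have a symbol of this keratin form, 27 on chromosome 12, where KRT1 and KRT7 lie, and 28 on chromosome 17, where KRT14 and KRT19 lie. VIM lies on chromosome 10. The simple epithelial keratins KRT8, KRT18 and KRT20 were not analysed here, since the 4 keratin rows were those of KRT1, KRT7, KRT14 and KRT19. Desmin, nestin and the lamins were not analysed either, since 0 of the 14 other filament genes looked for were among the rows.

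The deposited gene values are normalized counts, in which low values are replaced by a floor of 25.7 to 34.9 that equals the mean plus 2 SD of the sample's negative controls. Division by a sample factor of 0.885 to 1.51 gives back whole barcode counts, with totals of 867421 to 1335466 counts per sample. In limma, 368 of 770 genes (47.8%) passed an adjusted p below 0.05, 168 of them higher (21.8%) and 200 lower (26%) in p21-/- cells, and in 402 genes (52.2%) the values of the lines did not overlap. Among the 446 genes above the floor in every sample, 313 (70.2%) passed. The share of called genes that were higher was 45.7%, but it ranged from 15.5% to 91.4% with other scalings between samples. CDKN1A, the targeted gene, fell by 3.48 on the log2 scale (standard error 0.118, adjusted p = 6.51e-13 from limma) to 419 ± 37.0 normalized counts (SD, n = 3) in p21-/- cells.

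VIM was the gene with the largest change of the panel. Its normalized count was 172, 111 and 161 in the WT samples, in the order of their replicate numbers, but 29354, 30440 and 30183 in the p21-/- samples in the same order. All p21-/- values lay far above all WT values, and the lines did not overlap. The mean rose from 148 ± 32.4 to 29992 ± 567 counts after normalization (mean ± SD of 3 samples in either line), a ratio of means of 202. In limma the log2 fold change was 7.68, with a 95% interval from 7.40 to 7.95 and an adjusted p of 1.56e-16. None of the other 769 genes had a larger absolute log2 fold change. Summed over all genes, floor values included, VIM supplied 0.0131%, 0.00847% and 0.0115% of the signal of the WT samples and 2.40%, 2.53% and 2.54% of that of the p21-/- samples.

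The low level of VIM in WT cells was a measured one. The WT values stood 5.76, 3.18 and 4.78 times above the floor of their samples, and correspond to 114, 99 and 138 barcode counts, with exact 95% Poisson intervals of 94.0 to 137, 80.5 to 121 and 116 to 163 that cover counting error only. The highest negative control probe in these samples had 26, 30 and 30 counts. When the floor was subtracted from each sample, the log2 fold change of VIM was 8.06, since the background forms a larger part of the WT values. The coefficient of variation was 21.9% between WT samples, where counting alone would give 9.31%, and 1.89% between p21-/- samples, where counting alone would give 0.565%. Because RNA was taken from whole cultures, a few WT cells with much vimentin and many WT cells with little cannot be told apart, and neither can fewer cells of a type and less RNA per cell.

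**Figure D1:**
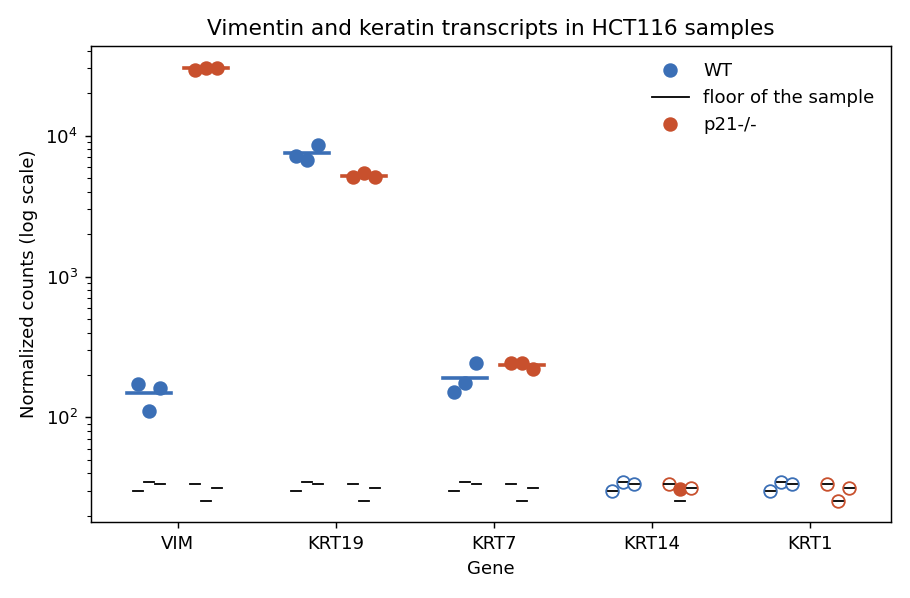
Normalized counts (log scale) of VIM, KRT19, KRT7, KRT14 and KRT1 in each WT (blue) and p21-/- (orange) sample, with colored bars for the mean of 3 samples, short black lines for the floor of each sample and open circles for values at the floor. Between the lines VIM moves from 148 to 29992 counts on average, KRT19 from 7488 to 5186 and KRT7 from 190 to 235, with the sign for both keratins depending on the scaling, and KRT14 and KRT1 stay at or near the floor.

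As the gene with the largest change, VIM is shown with the DNA directly upstream of its annotated start. The sequence is the 250 bases before the RefSeq start on the plus strand of GRCh38.p14, chr10:17227991-17228240, and VIM was the only member of the 5 matched in the promoter table. Capitals mark the single match to GGGCGG, the GC box bound by SP1-type factors.
VIM upstream: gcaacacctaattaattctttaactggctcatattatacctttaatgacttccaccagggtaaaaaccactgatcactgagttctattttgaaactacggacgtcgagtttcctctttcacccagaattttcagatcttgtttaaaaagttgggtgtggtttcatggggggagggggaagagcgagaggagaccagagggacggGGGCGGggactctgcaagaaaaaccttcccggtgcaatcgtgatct
The match covers bases 46 to 41 before the start and overlaps no other match. Searched on both strands in windows of the same length, GGGCGG was found in 42.6% of 35116 promoters, the E-box CACCTG, a motif of SNAI and ZEB factors, in 17.5%, and the TATA box TATAAA in 10.7%. CACCTG and TATAAA had 0 matches in the VIM window. The GC content of the window was 46%, against a median of 58% over all promoters. Protein binding and DNA methylation were not measured in these samples.

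KRT19, a type I keratin of simple epithelia such as that of the colon, was the only keratin whose change passed the test, and its change was small beside that of VIM. Replicates 1 to 3 of the WT line gave 7154, 6718 and 8592 normalized counts, and those of the p21-/- line 5065, 5439 and 5054. Every p21-/- value was lower than every WT value. The mean went from 7488 ± 981 to 5186 ± 219 normalized counts (SD, n = 3 each), so p21-/- cells kept 69.3% of the WT level. With the authors' normalization KRT19 fell by 0.52 on the log2 scale (95% interval -0.73 to -0.32, adjusted p = 0.000213 from limma), while 290 genes had a larger absolute log2 fold change. Scaling to the positive controls alone turned the sign to 0.48 (adjusted p = 0.0343), and without any scaling the log2 fold change was -0.13 (adjusted p = 0.587).

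The barcode counts show what this dependence rests on. Before scaling, the barcode count of KRT19 was 4748, 5980 and 7347 in WT and 4695, 5976 and 5712 in p21-/- samples, and the lines overlapped. The sample factors were 1.12 to 1.51 in WT and 0.885 to 1.08 in p21-/- samples. The positive controls had geometric means of 1601 to 1861 counts in WT and 1102 to 1261 in p21-/- samples. Of 30 housekeeping candidates in the table, 19 were called higher in p21-/- cells and 3 were called lower, at a median log2 fold change of 0.38. All 30 were above the floor in every sample. Of the 446 such genes 70.2% were called, 135 higher and 178 lower. Scaling to the housekeeping candidates gave a log2 fold change of -0.91 for KRT19. Against the median of the 446 genes measured above the floor in every sample, which was -0.05, KRT19 stood 0.47 lower. That position is the same under any linear scaling apart from the pseudocount, and was 0.68 lower after quantile normalization. The part of the run in these values was not tested.

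KRT7, a type II keratin of simple and glandular epithelia, did not pass the test. Replicates 1 to 3 of the WT line gave 151, 175 and 244 normalized counts, and those of the p21-/- line 242, 242 and 221. WT replicate 3 was the highest of all 6 samples, so the lines overlapped. The means were 190 ± 48.6 and 235 ± 11.9 normalized counts (SD, n = 3), with a log2 fold change of 0.33 in an interval of 95% confidence from -0.04 to 0.71 (adjusted p = 0.147 from limma). The interval leaves room for a rise of that size as well as for no change. The adjusted p was 0.00798 without WT replicate 3, where the log2 fold change was 0.53, and it was 0.00581 with median scaling, where it was 0.55, whereas scaling to housekeeping candidates gave -0.05. The probe counted 100 to 209 barcodes in WT and 224 to 266 in p21-/- samples.

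KRT1 and KRT14, keratins of the suprabasal and the basal layer of stratified epithelia, were not detected above background in WT cells. KRT1 was at the floor in all 6 samples. KRT14 was at the floor in 5 samples and reached 30.9 normalized counts, from 34 barcode counts, in p21-/- replicate 2, whose floor was 25.7 and thus the lowest of all. This value was below the floors of the other p21-/- samples. No fold change is given for these genes, since both lines were at or close to the floor, and a difference was not detectable at this depth. Of the 5 filament genes, 2 thus passed the adjusted p of 0.05, VIM upwards and KRT19 downwards, against 47.8% of all genes and 70.2% of those above the floor in every sample.

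**Figure D2:**
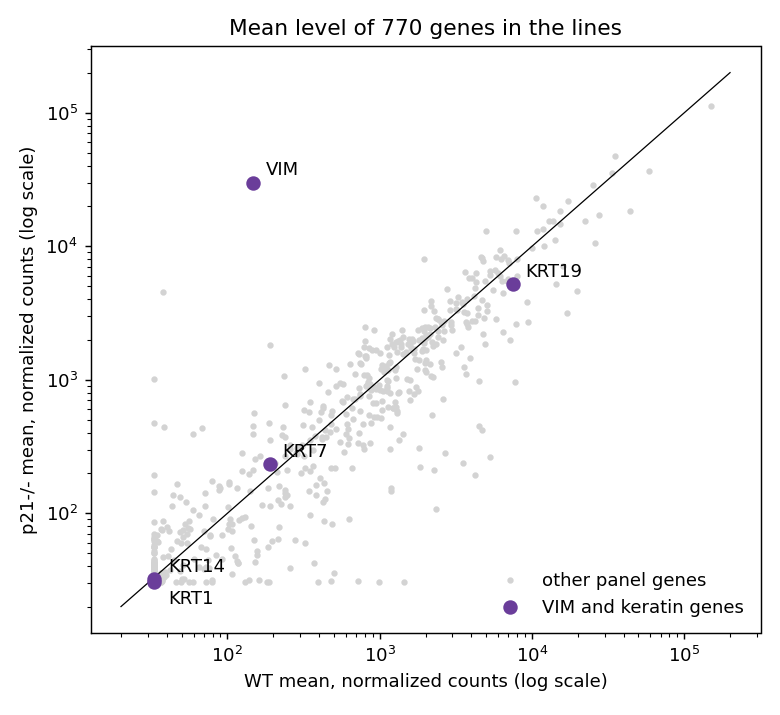
Mean normalized counts of 770 genes in WT (x axis) and p21-/- samples (y axis), n = 3 each, both on a log scale, with the line of equal levels and the 5 filament genes in purple. VIM lies farthest from the line at 148 against 29992 counts, while KRT19 and KRT7 lie within the cloud and KRT1 and KRT14 at the floor.

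The balance between the filament types was followed as the ratio of normalized counts within a sample, which no linear scaling between samples can change. As probes can differ in capture, ratios and shares here are of probe counts and do not give the proportion of the transcripts, so they are compared between lines only. The ratio of VIM to KRT19 was 0.0240, 0.0166 and 0.0188 in replicates 1 to 3 of the WT line and 5.80, 5.60 and 5.97 in those of the p21-/- line. Every p21-/- ratio was above every WT ratio. The log2 ratio rose from -5.68 ± 0.27 to 2.53 ± 0.05 (SD, n = 3 each), a difference of 8.21 with a standard error of 0.16, or 296-fold. Even the closest samples of the lines were 233-fold apart. The exact permutation test over samples, two-sided, gave p = 0.1, the smallest that 3 against 3 samples allow.

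The ratio between KRT19 and KRT7 also differed between the lines, although KRT7 alone was not called. The ratio of KRT19 to KRT7 was 47.5, 38.3 and 35.2 in the WT samples and 20.96, 22.5 and 22.8 in the p21-/- samples. All p21-/- ratios were lower than all WT ratios, although KRT7 alone overlapped between the lines. Of all single genes, 52.2% did not overlap. The log2 difference was -0.86 (standard error 0.13), a 1.81-fold lower ratio. The ratio of VIM to KRT7 was 1.14, 0.635 and 0.660 in the WT samples and 121, 126 and 136 in the p21-/- samples, 163-fold higher. Among the summed probe counts of VIM, KRT19 and KRT7, the part of VIM was 1.59% to 2.30% in WT and 84.3% to 85.1% in p21-/- samples, and the part of KRT19 was 95.5% to 95.9% and 14.3% to 15.1%. Each of these ratios had the smallest possible p of 0.1 in the exact permutation test, also after Benjamini-Hochberg adjustment over 5 ratios, which include those of KRT19 to CDH1 and EPCAM.

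**Figure D3:**
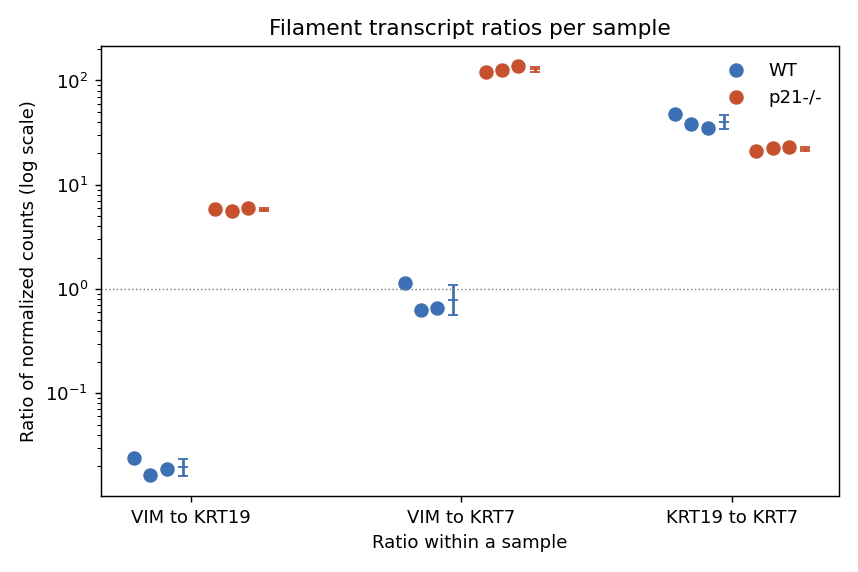
Ratios of normalized counts (log scale) within each WT (blue) and p21-/- (orange) sample, with bars for the mean and SD of the log2 ratios (n = 3) and a dotted line at equal counts. VIM to KRT19 lies between 0.0166 and 0.0240 in WT and between 5.60 and 5.97 in p21-/- samples, and KRT19 to KRT7, from 35.2 to 47.5 in WT, is lower in all p21-/- samples.

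**Figure D4:**
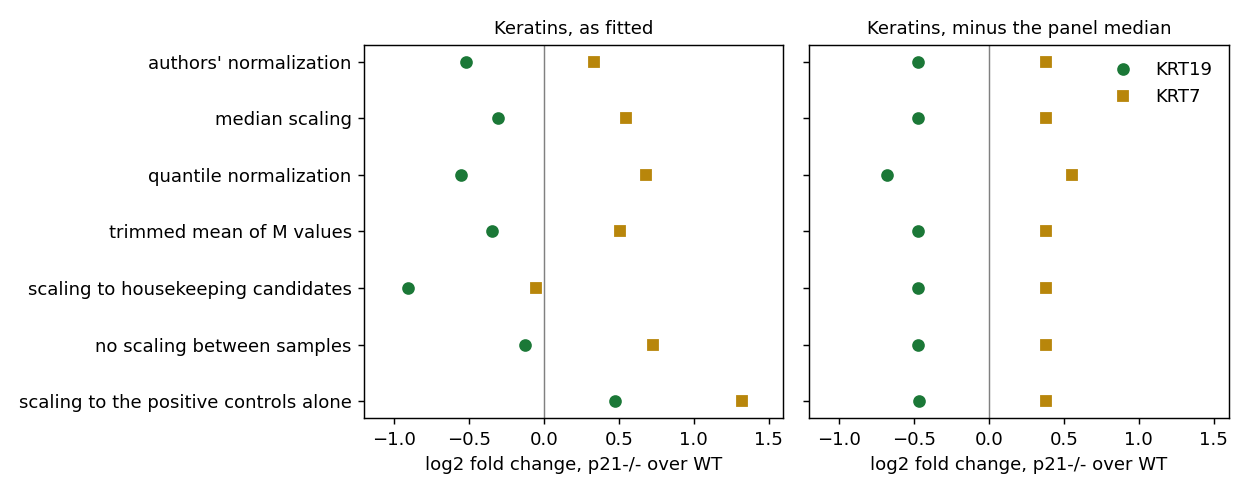
Log2 fold changes (p21-/- over WT) of KRT19 (circles) and KRT7 (squares) under 7 scalings between samples, on the left as fitted and on the right relative to the median of 446 genes above the floor. On the left KRT19 moves from -0.91 to 0.48 and KRT7 from -0.05 to 1.33, while on the right KRT19 stays below and KRT7 above the median, which linear scalings do not move.

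Of the 4 measured genes for proteins that tie keratin filaments to cell contacts, 3 fell in p21-/- cells, each by more than KRT19. Over the panel, 165 of 770 genes fell by more than KRT19, and 200 were called lower. With scaling to the positive controls alone, 1 of the 4 was lower and 1 higher. Of 20 genes for filament linkers and desmosome proteins, 4 were in the table, and 3 fell, 0 rose and 1 was not called, with a median log2 fold change of -0.90. All 4 were above the floor in every sample, and of all such genes 70.2% were called, at a median of -0.05. PPL (periplakin), a plakin that links keratin filaments to desmosomes, went from 2264 ± 133 to 212 ± 24.5 normalized counts (mean ± SD, n = 3), with a log2 fold change of -3.41 (adjusted p = 5.51e-13 from limma). EVPL (envoplakin), its plakin partner, had a log2 fold change of -0.88 (adjusted p = 0.000111), and DSC2, a desmosomal cadherin, of -0.91 (adjusted p = 1.41e-06), but with scaling to the positive controls alone these were 0.12 and 0.08. PPL stayed between -3.80 and -2.42 under all 7 scalings. DST (dystonin), a large linker of several filament systems, had 1884 ± 238 and 1967 ± 62.8 normalized counts (SD, n = 3 each; adjusted p = 0.561). Without scaling between samples, 1 of these 4 genes was called.

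Hemidesmosomes anchor keratin filaments to the basement membrane, and of 7 listed genes 5 were in the table. With the authors' normalization 2 rose, 2 fell and 1 was not called, but 4 were higher and 0 lower with scaling to the positive controls alone, and 1 was higher and 3 lower with scaling to housekeeping candidates. The median log2 fold change was 0.04, and all 5 were above the floor in every sample, where 70.2% of genes were called. ITGB4, the integrin chain that binds plectin and thereby keratin filaments, had a log2 fold change of -1.24 (adjusted p = 2.51e-07), while its partner ITGA6 had 0.04 (adjusted p = 0.715). Among genes of laminin chains, the ligand outside the cell, LAMA3 had a log2 fold change of 0.75 (adjusted p = 0.00411) and LAMB3 of -0.49 (adjusted p = 0.00660), which turned to 0.51 with scaling to the positive controls alone. With subtraction of the floor or an ordinary linear model, 2 of these 5 genes were called.

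Beside other epithelial genes, the change of KRT19 was among the smaller ones. Of 28 listed epithelial genes 20 were in the table, and 15 fell, 2 rose and 3 were not called, with a median log2 fold change of -1.76 against -0.12 over all genes, of which 26% fell and 21.8% rose. Of the 20, 17 were above the floor in every sample, and of all 446 such genes 178 fell and 135 rose, at a median of -0.05. With scaling to the positive controls alone, 11 were lower and 5 higher. All 15 that fell had a larger fall than KRT19, but so did 165 of all 770 genes, of which 200 were called lower. A larger fall than that of KRT19 was thus not particular to this list. Of the 15, all but ST14 (the protease matriptase) and its inhibitor SPINT1 stayed lower under the 7 scalings. ELF3, an epithelial transcription factor, and CDH1, encoding E-cadherin, had log2 fold changes of -3.32 and -3.23, and TJP3, a tight junction scaffold, of -2.99. GRHL2, an epithelial transcription factor, had -2.70 with 1 of the p21-/- samples at the floor. The risers were OVOL2, an epithelial transcription factor, and EPCAM, which were chosen for mention after their values were seen, with log2 fold changes of 1.92 and 0.22, the latter turning to -0.17 with scaling to housekeeping candidates. EPCAM passed narrowly (adjusted p = 0.0444 from limma), and its call was lost with the replicate block (adjusted p = 0.0834), constant prior variance (0.135), an ordinary linear model (0.0792), subtraction of the floor (0.0533) and housekeeping candidates (0.0521), and without WT replicate 2 (0.0705) or p21-/- replicate 1 (0.223), 2 (0.0892) or 3 (0.113). Of the 4 claudins measured, CLDN7 and CLDN4 fell, with log2 fold changes of -2.17 and -1.73 that stayed below 0 under the 7 scalings, and CLDN3 was not called, with 0.25. CLDN1 was above the floor in 1 of the 6 samples, from p21-/- cells, and is given no fold. The claudins too were chosen for mention after their values were seen.

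The ratio of KRT19 to CDH1 was 3.17, 2.34 and 2.93 in the WT samples and 18.7, 19.2 and 17.2 in the p21-/- samples. It was thus higher in every p21-/- sample, 6.57-fold on average (log2 difference 2.72, standard error 0.14). The ratio of KRT19 to EPCAM, an epithelial adhesion protein, was 1.29, 1.24 and 1.40 in the WT samples and 0.721, 0.856 and 0.782 in the p21-/- samples, a log2 difference of -0.74 (standard error 0.09). It was lower in every p21-/- sample. CDH1 and EPCAM were chosen for these ratios after their values were seen, and each ratio had p = 0.1 in the exact permutation test, the smallest possible.

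VIM rose together with some mesenchymal genes but not with all. Of 18 listed genes other than VIM, 17 were in the table, and 7 rose, 3 fell and 7 were not called, while 21.8% of all genes rose and 26% fell. The split was 14 higher and 1 lower with scaling to the positive controls alone, 7 higher and 10 lower with housekeeping candidates, and 7 higher and 9 lower with the floor at its upper bound. The median log2 fold change was -0.12, which is the value that a gene takes when every sample is at the floor. Of the 17, 6 were at the floor in every sample, among them CDH2, encoding N-cadherin, and ZEB2. SPARC, a matricellular protein, had a log2 fold change of 6.89 with 2 of the WT samples at the floor. SNAI2, an EMT transcription factor, and TNC, encoding tenascin-C, did not leave the floor in WT cells and were at least 11.5-fold and 3.51-fold higher in p21-/- cells. THBS1, encoding thrombospondin-1, had a log2 fold change of 2.17 (adjusted p = 1.5e-10 from limma). The other risers were ZEB1 and FN1, an EMT transcription factor and fibronectin, and FBLN5, with 1.16, 0.76 and 0.85. Those that fell included ITGA5, the fibronectin receptor chain, and TWIST1, an EMT transcription factor, with log2 fold changes of -1.10 and -1.002, which were -0.10 and -0.02 with scaling to the positive controls alone. These 5 genes were chosen for mention after their values were seen.

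**Figure D5:**
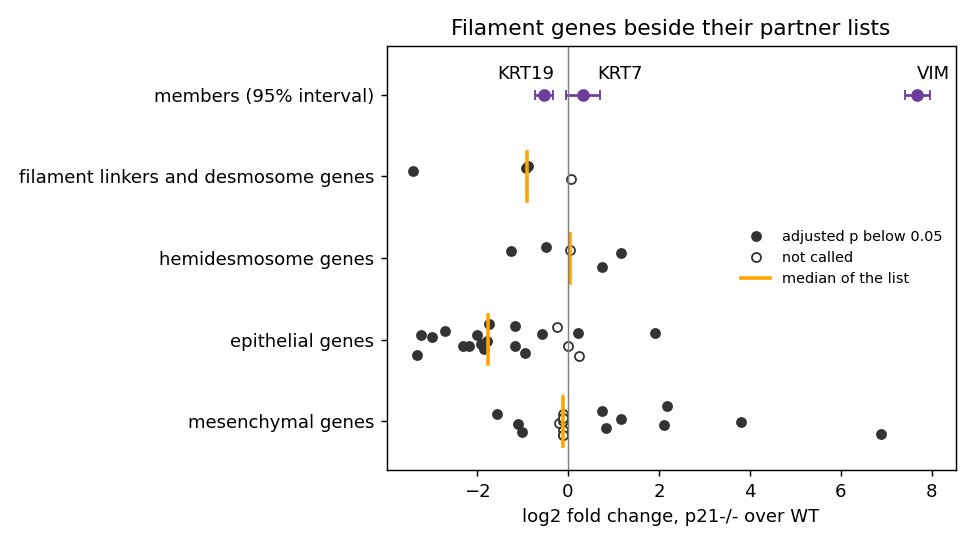
Log2 fold changes (p21-/- over WT, from limma) of KRT19, KRT7 and VIM with their 95% intervals in the top row and of the genes in 4 lists below, filled where the adjusted p was below 0.05 and open otherwise, with an orange line at the median of each list. VIM lies to the right of all listed genes, most epithelial genes lie to the left of KRT19, which crosses zero with scaling to the positive controls alone, and positions of genes at the floor are limits rather than measured changes.

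Vimentin is also abundant in fibroblasts, endothelial cells and leukocytes, so markers of these cells were examined. Of 8 fibroblast markers, 7 did not leave the floor in WT cells, and LUM and FAP were at the floor in all 6. In p21-/- cells DCN and COL3A1 were above the floor in 2 samples each, and THY1 and COL1A2 in 1 sample each. The 8 markers, floor values included, summed to 418 to 477 normalized counts in WT and 284 to 333 in p21-/- samples. COL1A1 was at 215 ± 24.2 in WT and lower, at 63.8 ± 3.18 (SD, n = 3), in p21-/- cells (adjusted p = 2.27e-07 from limma), and PDGFRB rose from the floor to 50.3 ± 5.90, at least 1.22-fold. Of 7 endothelial markers, 6 were at the floor in all samples, and PECAM1 was above it in 2 of the p21-/- samples. The endothelial values, floor values included, summed to 209 to 245 normalized counts in WT and 181 to 244 in p21-/- samples. Of 3 immune markers, PTPRC and ITGAM were at the floor in all samples, and CD163 was above it in 1 of the p21-/- samples. The immune sums were 89.4 to 105 in WT and 85.0 to 102 in p21-/- samples. Every endothelial and immune value in WT was a floor value, so the WT sums only follow the floors and are not measured levels. The colon epithelium markers EPCAM, CDH1 and KRT19 were above the floor in all samples, and CEACAM5 was at the floor in all. EPCAM was at 5692 ± 377 normalized counts in WT and 6612 ± 358 in p21-/- cells (SD, n = 3 each). CDH1 and KRT19 were lower in p21-/- cells, with CDH1 at 2687 ± 376 and 283 ± 11.5 and KRT19 at 7488 ± 981 and 5186 ± 219.

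Finally, genes with the most similar profile were listed for each filament gene above the floor, by the Euclidean distance between log2 profiles over the 6 samples, each centred on its WT mean, among the 445 other genes above the floor in every sample. This leaves out genes at the floor in any WT sample, among them SPARC, whose log2 fold change of 6.89 is nearer to that of VIM than those of the genes named next, and SNAI2. Of the genes compared, those nearest to VIM were NRP1 at a distance of 7.68, HLA-DPB1 at 8.63, ISL1 at 8.70, THBS1 at 9.55 and F3 at 9.75, with log2 fold changes between 2.06 and 3.26. KRT19 had near neighbours, MAPK3 at 0.10, EGFL7 at 0.17, AKT1 at 0.19, ADAM9 at 0.21 and CIB1 at 0.22, with log2 fold changes between -0.53 and -0.45. The profiles nearest to KRT7 were those of FBLN1 at 0.21, MAPKAPK3 at 0.26, CYB561 at 0.29, HSP90B1 at 0.29 and MED1 at 0.31, with log2 fold changes between 0.25 and 0.36. Similarity of this kind is a description of 6 samples in 2 lines.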

How the data were processed

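The NanoString PanCancer Progression Panel was used to count transcripts of 3 HCT116 WT and 3 HCT116 p21-/- samples, and samples were grouped by their deposited titles. The deposited gene values are a signal, namely normalized counts made by the authors in nSolver with positive control and housekeeping normalization, with a floor that no source used here describes. Control probes are raw counts. The study's own test, NanoStringDiff, needs raw counts and was not repeated. A factor per sample, searched on values under 500, returned 100% whole barcode counts within 0.1 count above the floor. Totals and floors are given in the report, and intervals cover counting error only.

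Values were tested as log2(value + 1), a scale that understates changes of low genes, with limma 3.58.1 in R 4.3.3 (lmFit, eBayes with an intensity trend, two-sided, Benjamini-Hochberg over 770 genes, no filter, no covariate). The fit and the factor search were tested on simulated data. Ratios within a sample were tested by exact permutation. Replicate pairs differed by more than sampling noise (chi-square per degree of freedom 2.06 to 80.6). All members were named, with the 4 called genes of largest absolute change in each list, the 5 nearest profiles and CDKN1A, but for housekeeping candidates and marker lists, which are given by counts and by the markers that define them. Some genes under this rule are not reported here. Members, lists and tests were chosen with earlier results of these data known. Where a line was wholly at the floor, folds are lower bounds against the floor, or the floor times the factor where that is larger. As alternatives, the pseudocount was 10 or 0.5, genes below a mean of 20 were left out, and other scalings, floor and variance settings, the replicate number as a block, and leaving out each sample were tried. Omission of scaling and scaling to positive controls alone were chosen after seeing the data. Promoter sequence is from RefSeq (GRCh38.p14).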

Additional observations from a re-analysis of the deposited data

How the results depend on the processing

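The VIM rise and all 3 ratios among VIM, KRT19 and KRT7 kept their direction in every alternative run. With each sample left out, the log2 difference was 8.09 to 8.36 for VIM to KRT19, 7.20 to 7.62 for VIM to KRT7 and -0.95 to -0.73 for KRT19 to KRT7, which was -1.24 with quantile normalization. KRT19 kept its call except without scaling between samples (log2 fold change -0.13) and with scaling to the positive controls alone, where it reversed to 0.48. KRT7 passed the threshold with quantile normalization (0.68), median scaling (0.55), a trimmed mean of M values (0.51), no scaling (0.73) and positive controls alone (1.33), reversed with housekeeping candidates (-0.051), and was 0.18 to 0.53 with each sample left out. In place of 368 genes, 626 were called with housekeeping candidates, 659 with positive controls alone and 560 with the floor at its upper bound, which raises the floor more in WT samples. Called genes numbered 1 of 4 filament linkers without scaling, 2 of 5 hemidesmosome genes with floor subtraction and with an ordinary linear model, and 17 and 16 of 17 mesenchymal genes with housekeeping candidates and the floor at its upper bound. Of these 17 genes, 6 are wholly at the floor in the deposited values. The cause of the other differences was not tested. Same-numbered samples share only a number (correlations of their deviations over 446 genes were 0.08, -0.05 and 0.05), and the replicate block gave 363 calls and no other call for VIM, KRT19 or KRT7. With 3 samples a line, ratios cannot reach p below 0.1, and the floor limits all genes near it.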
